A study of Mus musculus with 6 samples.

Results

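Haematopoietic stem cells carry the machinery through which interferons reach the nucleus, and this account follows 9 of its genes: the receptor chains Ifngr1, Ifngr2, Ifnar1 and Ifnar2, the kinases Jak1, Jak2 and Tyk2, and the transcription factors Stat2 and Stat3. All 21 probe sets that the platform table gives one of these symbols alone were taken, of 45101 on the array, and stand for 9 of 18194 named genes. Of the 21, 19 passed the filter on dim signals and were tested. The cells were sorted from bone marrow of C57BL/6 mice at an age of 8 to 12 weeks, housed in a specific-pathogen-free unit, as Hoechst side population cells stained for Sca-1, c-kit and lineage markers. Of the 6 arrays, 3 are labelled as stem cells of Lrg-47-/- mutant mice (Lrg-47 is an older name of Irgm1, an interferon-induced GTPase) and 3 as stem cells of wild-type mice. The labels give neither the deleted part of Irgm1 nor whether the arrays of a group came from separate mice, so p-values measure the spread between these arrays, which may be technical. The single Irgm1 probe set read 7.68, 8.58 and 7.84 on the mutant-labelled arrays against 8.39, 8.57 and 8.36 on the wild-type arrays (log2 difference -0.41, SE 0.25, limma adjusted p = 0.475), and the groups are therefore named by their labels, as Irgm1-/--labelled and wild-type arrays.

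Interferon gamma binds Ifngr1, and Ifngr2 joins it to start the signal; Jak1 is bound to the tail of Ifngr1 and Jak2 to that of Ifngr2. Type I interferons bind Ifnar1 and Ifnar2, with Tyk2 attached to Ifnar1 and Jak1 to Ifnar2, and the activated kinases phosphorylate STAT proteins, which move to the nucleus. Stat2 acts mainly with the DNA-binding factor Irf9 at the interferon-stimulated response element, whereas Stat3 is best known as the effector of receptors of the IL-6 family and binds elements of the gamma-activated site type. Chronic interferon signalling is known to push stem cells out of quiescence.

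The promoters of the 9 genes, taken from RefSeq for assembly GRCm38.p6, are shown where they hold a binding motif of the pathway's own factors, because Stat2 is a known interferon target itself. The core of the interferon-stimulated response element was searched as GAAA, any 2 bases and GAAA again, and that of the gamma-activated site as TTCNNNGAA, on both strands of each 300-base window. The first was found in 1 of the 9 windows (Stat2) and in 3.44% of all 32851 promoters, and the second in 2 of the 9 (Ifnar1 and Ifnar2) and in 8.3% of all promoters. Of 26 promoter-matched genes in a list of 36 interferon targets, 15 held the first motif and 7 the second. The windows below run 5′ to 3′ from 250 bases before to 10 bases after the annotated start and capitals mark the matches, each of which stands alone. The second motif reads the same way on both strands. Rsad2, a target that rose on the Irgm1-/--labelled arrays, is shown for comparison.
Stat2, chr10:128270248-128270507, plus strand: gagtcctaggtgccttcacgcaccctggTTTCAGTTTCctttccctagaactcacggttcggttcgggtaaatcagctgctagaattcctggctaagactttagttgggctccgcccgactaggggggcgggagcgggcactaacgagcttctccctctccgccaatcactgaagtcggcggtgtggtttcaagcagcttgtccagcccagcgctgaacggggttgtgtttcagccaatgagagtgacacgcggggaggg
Ifnar1, chr16:91484965-91485224, plus strand: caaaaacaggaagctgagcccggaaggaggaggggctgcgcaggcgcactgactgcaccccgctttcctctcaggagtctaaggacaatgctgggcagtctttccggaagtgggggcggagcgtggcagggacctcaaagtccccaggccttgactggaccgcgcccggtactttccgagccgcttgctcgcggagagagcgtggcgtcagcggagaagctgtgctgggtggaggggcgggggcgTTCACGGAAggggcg
Ifnar2, chr16:91372533-91372792, plus strand: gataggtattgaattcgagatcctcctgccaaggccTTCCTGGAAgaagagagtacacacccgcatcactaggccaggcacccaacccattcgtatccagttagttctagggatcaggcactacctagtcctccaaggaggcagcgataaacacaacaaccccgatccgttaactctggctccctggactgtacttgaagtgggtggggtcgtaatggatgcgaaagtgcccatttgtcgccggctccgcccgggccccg
Rsad2, chr12:26456443-26456702, minus strand: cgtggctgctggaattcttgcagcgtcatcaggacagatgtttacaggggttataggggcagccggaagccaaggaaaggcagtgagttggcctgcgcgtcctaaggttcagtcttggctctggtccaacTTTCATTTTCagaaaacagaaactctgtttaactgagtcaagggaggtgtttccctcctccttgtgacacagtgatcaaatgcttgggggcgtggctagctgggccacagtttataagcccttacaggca
The matches in Stat2 and Rsad2 read as the motif on the strand opposite to the gene. They begin 222 and 120 bases before the start, those of Ifnar1 and Ifnar2 5 and 214 bases before it. These are matches of letters and say nothing of binding.

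None of the 9 genes passed the test between the groups. Limma, fitted over all 22580 probe sets tested with Benjamini-Hochberg adjustment, called 0 of the 19 member probe sets at an adjusted p under 0.05, against 1.39% of all probe sets tested, and their adjusted p-values ran from 0.291 to 0.983. At an unadjusted p under 0.05 there was 1 of 19, a probe set of Ifnar1, against 16.4% of all tested. The groups did not overlap for 4 of 19 probe sets (21.1%, against 22.6% of all tested), with Ifngr2, Ifnar2 and Jak1 probe sets lower and a Stat3 probe set higher on the Irgm1-/--labelled arrays. The median log2 difference was 0.17 over the 19 and 0.01 over all tested, and the median size of the difference, whatever its sign, was 0.20 and 0.21.

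A missed threshold does not show equal levels, so the intervals are given. For 17 of the 19 probe sets the 95% interval of the difference lay within 1 log2 unit of 0 on both sides, that is, within 2-fold either way, against 77.4% of all tested. The exceptions were the Ifnar1 probe set 1442222_at, whose interval reached 1.38, and the Tyk2 probe set 1417306_at, whose interval reached 1.02.

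**Figure D1:**
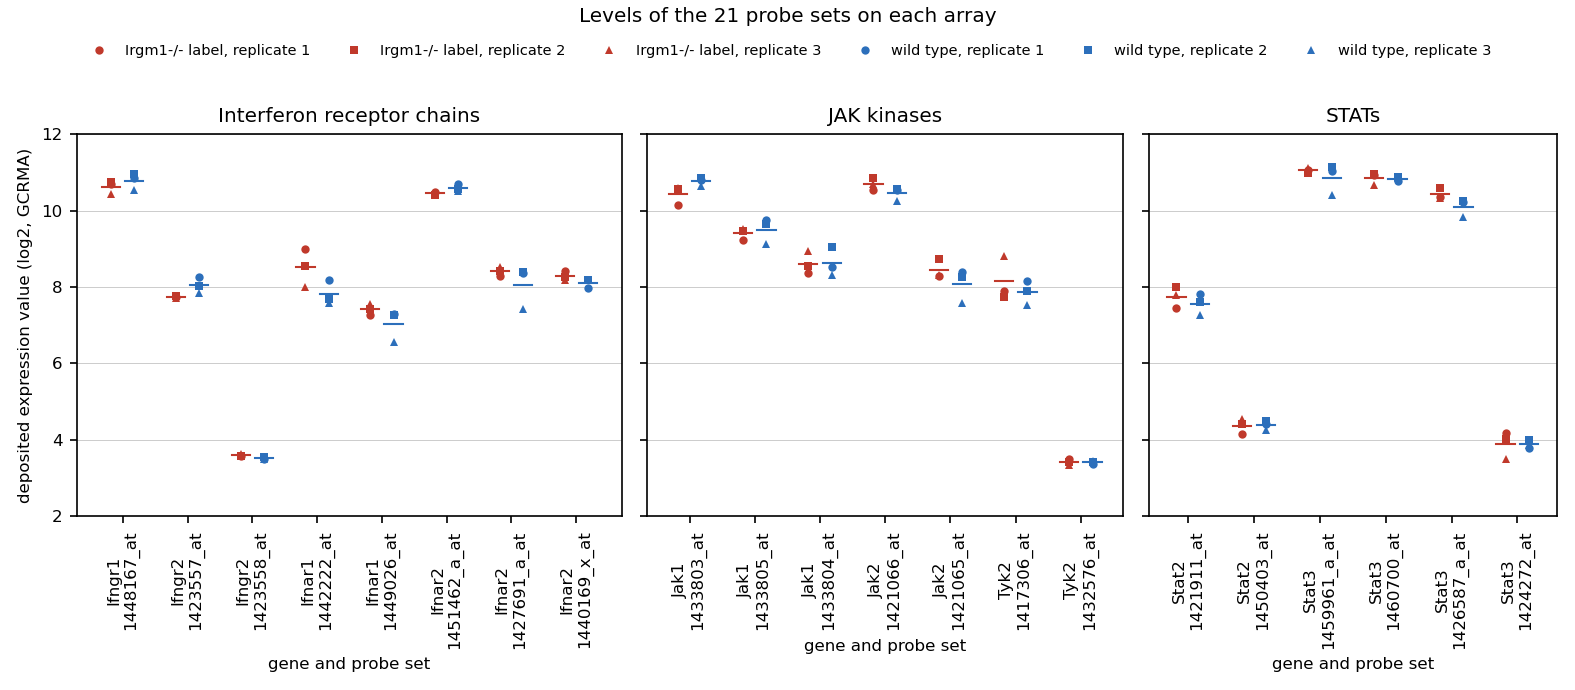
Deposited log2 expression value (vertical axis) of each of the 21 probe sets of the receptors, JAK kinases and STATs on each array, with Irgm1-/--labelled arrays in red, wild-type arrays in blue, marker shapes for replicates 1 to 3 and bars for group means. Heights of different probe sets cannot be compared with each other. Within each probe set the colours lie close together, and wild-type replicate 3 is often the lowest blue point.

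Of the interferon gamma receptor, the ligand-binding chain Ifngr1 was measured by 1 probe set. It read 10.69, 10.74 and 10.43 on the Irgm1-/--labelled arrays against 10.84, 10.95 and 10.54 on the wild-type arrays. The groups overlapped, and the log2 difference was -0.16 (SE 0.16, 95% interval -0.53 to 0.22, adjusted p = 0.677). It was -0.06 without Irgm1-/--labelled replicate 3, -0.07 without wild-type replicate 2 and, with wild-type replicate 3 left out, -0.28.

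The accessory chain Ifngr2, which brings Jak2 to the complex, gave 7.73, 7.76 and 7.71 on the Irgm1-/--labelled arrays against 8.26, 8.03 and 7.84 on the wild-type arrays with 1423557_at. All 3 Irgm1-/--labelled arrays were below all 3 wild-type arrays and they varied little (mean 7.73 ± 0.03, against 8.04 ± 0.21 on the wild-type arrays, SD, n = 3 each), and the log2 difference of -0.31 (SE 0.17, 95% interval -0.71 to 0.10, adjusted p = 0.429) did not pass. Its other probe set, 1423558_at, stayed between 3.57 and 3.64 on the Irgm1-/--labelled arrays and no higher than 3.54 on the wild-type arrays, below the median of each array, and was not tested.

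Ifnar1, the chain of the type I receptor that binds Tyk2, had the largest difference of the 19. Its probe set 1442222_at read 8.99, 8.56 and 8.00 on the Irgm1-/--labelled arrays against 8.19, 7.69 and 7.58 on the wild-type arrays. The log2 difference was 0.70, or 1.63-fold (SE 0.29, 95% interval 0.03 to 1.38, unadjusted p = 0.0437, adjusted p = 0.291). The lowest Irgm1-/--labelled array, replicate 3, lay below the highest wild-type array, replicate 1. The second Ifnar1 probe set, 1449026_at, read 7.27, 7.41 and 7.55 on the Irgm1-/--labelled arrays against 7.28, 7.26 and 6.57 on the wild-type arrays, and its difference of 0.38 (SE 0.24, adjusted p = 0.481) came mostly from wild-type replicate 3, since without that array it was 0.14. The 1442222_at difference was 0.58 without that array and 0.46 to 0.96 with any single array left out.

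Ifnar2, the high-affinity chain of the type I receptor, was measured by 3 probe sets that did not go one way. The brightest, 1451462_a_at, read 10.49, 10.41 and 10.47 on the Irgm1-/--labelled arrays against 10.69, 10.57 and 10.52 on the wild-type arrays, with no overlap and a small log2 difference of -0.14 (SE 0.12, 95% interval -0.42 to 0.15, adjusted p = 0.62). The 1427691_a_at values were 8.29, 8.41 and 8.52 on the Irgm1-/--labelled arrays against 8.37, 8.39 and 7.42 on the wild-type arrays. The difference of 0.34 (SE 0.28, adjusted p = 0.587) was 0.02 without wild-type replicate 3. The third, 1440169_x_at, a type of probe set that may also match other sequences, differed by 0.18 (SE 0.16, adjusted p = 0.638).

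Ifnar2, Il10rb, Ifnar1 and Ifngr2 follow one another as coding genes on chromosome 16 in the RefSeq gene order. The neighbour in between, Il10rb, a receptor chain shared by interleukin-10 and related cytokines, also had probe sets of opposite sign, with a log2 difference of -0.32 for one (SE 0.19, adjusted p = 0.456) and of 0.44 for the other (SE 0.24, adjusted p = 0.414).

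Among the kinases, Jak1, which serves both interferon receptors, had 3 tested probe sets, all with differences below 0. The brightest, 1433803_at, read 10.15, 10.57 and 10.60 on the Irgm1-/--labelled arrays against 10.81, 10.85 and 10.66 on the wild-type arrays. Every Irgm1-/--labelled array was below every wild-type array, by a mean log2 difference of -0.33 (SE 0.16, 95% interval -0.70 to 0.05, adjusted p = 0.362). Irgm1-/--labelled replicate 1 was the lowest array, and without it the difference was -0.18 (adjusted p = 0.683). The difference was -0.09 for 1433805_at (SE 0.20, adjusted p = 0.866) and -0.02 for 1433804_at (SE 0.25, adjusted p = 0.983), and with a single array left out these reached 0.03 and 0.20, so their sign did not hold.

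Jak2, the kinase of Ifngr2 and also of the thrombopoietin receptor on which stem cells depend, had both probe sets above 0. Its brighter probe set, 1421066_at, read 10.53, 10.86 and 10.71 on the Irgm1-/--labelled arrays against 10.55, 10.57 and 10.25 on the wild-type arrays (log2 difference 0.24, SE 0.15, 95% interval -0.11 to 0.60, adjusted p = 0.48). The groups overlapped. The dimmer one, 1421065_at, read 8.29, 8.74 and 8.33 on the Irgm1-/--labelled arrays against 8.38, 8.27 and 7.58 on the wild-type arrays (difference 0.37, SE 0.26, adjusted p = 0.516). Without wild-type replicate 3 the differences were 0.14 and 0.13.

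Tyk2, the kinase of Ifnar1, rested on a single tested probe set. The 1417306_at values were 7.89, 7.74 and 8.81 on the Irgm1-/--labelled arrays against 8.15, 7.90 and 7.52 on the wild-type arrays. Irgm1-/--labelled replicate 3 was the highest array and the other 2 lay within the wild-type range. The log2 difference of 0.29 (SE 0.31, 95% interval -0.45 to 1.02, adjusted p = 0.699) became -0.04 without that array. The other Tyk2 probe set, 1432576_at, was at 3.499 or lower on the Irgm1-/--labelled arrays and 3.37 to 3.43 on the wild-type arrays, below every array's median, and was not tested.

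Stat2, which carries the type I signal together with Irf9, read 7.44, 8.00 and 7.78 on the Irgm1-/--labelled arrays against 7.81, 7.61 and 7.27 on the wild-type arrays with 1421911_at. The groups overlapped, and the log2 difference was 0.17 (SE 0.23, 95% interval -0.35 to 0.70, adjusted p = 0.752). It was 0.03 without wild-type replicate 3 and 0.04 without Irgm1-/--labelled replicate 2, against 0.33 without Irgm1-/--labelled replicate 1 and 0.30 without wild-type replicate 1. The dim probe set 1450403_at, at 4.16 to 4.54 on the Irgm1-/--labelled arrays and 4.24 to 4.49 on the wild-type arrays, differed by -0.01 (SE 0.14, adjusted p = 0.98) and turned its sign with single arrays left out (-0.10 to 0.09). Stat2 is the member whose promoter, printed above, holds a match of the response element core. Rsad2, whose difference was 3.33, holds one too. Of the 12 promoter-matched targets that rose, 6 held it, against 15 of all 26 matched targets. A bearing of the match on these levels was not tested.

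Stat3 had 4 tested probe sets with log2 differences from 0.02 to 0.32. The brightest, 1459961_a_at, read 11.07, 10.999 and 11.11 on the Irgm1-/--labelled arrays against 11.03, 11.13 and 10.41 on the wild-type arrays (difference 0.20, SE 0.20, adjusted p = 0.665), and was at -0.02 without wild-type replicate 3. By contrast 1460700_at was nearly level, at 10.93, 10.97 and 10.68 on the Irgm1-/--labelled arrays against 10.77, 10.87 and 10.85 on the wild-type arrays (difference 0.03, SE 0.13, 95% interval -0.27 to 0.33, adjusted p = 0.932). The only Stat3 probe set without overlap, 1426587_a_at, read 10.36, 10.60 and 10.32 on the Irgm1-/--labelled arrays against 10.22, 10.26 and 9.85 on the wild-type arrays (difference 0.32, SE 0.16, 95% interval -0.06 to 0.71, adjusted p = 0.38). The fourth, 1424272_at, lay near the array median and differed by 0.02 (SE 0.18, adjusted p = 0.972). With single arrays left out 1460700_at ran from -0.02 to 0.12 and 1424272_at from -0.13 to 0.22, so 1426587_a_at alone of the 4 stayed above 0 in these repeats.

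**Figure D2:**
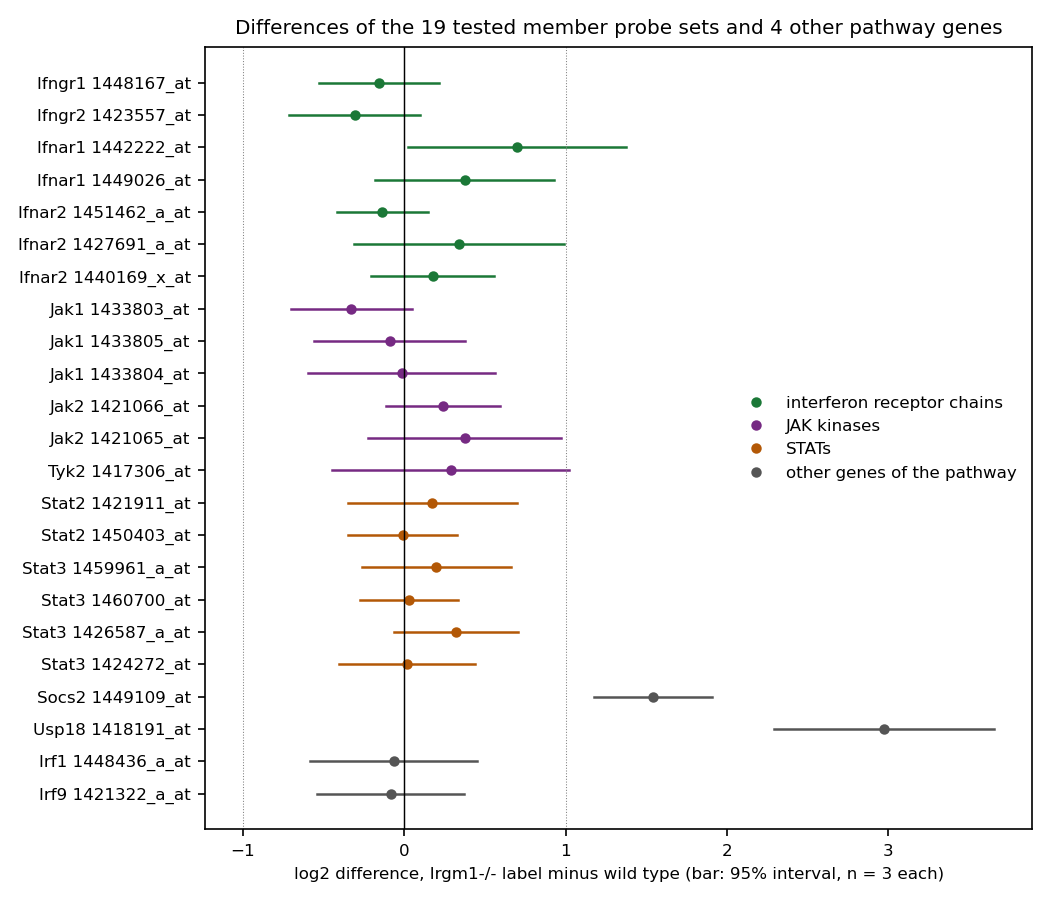
Log2 difference (horizontal axis, Irgm1-/--labelled minus wild type, n = 3 arrays each) of the 19 tested probe sets of the receptors, kinases and STATs and of 1 probe set each of Socs2, Usp18, Irf1 and Irf9, with bars for 95% intervals and dotted lines at 1 and -1. The interval of 1 member probe set, Ifnar1 1442222_at, leaves out 0, while Socs2 at 1.54 and Usp18 at 2.98 stand apart.

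One wild-type array set much of the spread within the members. Wild-type replicate 3 was the lowest of the 3 wild-type arrays for 16 of 19 member probe sets (84.2%, against 38.9% of all tested) and the lowest of all 6 arrays for 11 of 19, against 22.1% of all tested. Its median deviation from the mean of the 6 arrays was -0.32 over the members and -0.03 over all tested, while the other 5 arrays lay between -0.01 and 0.07 over the members. The 3 that did not follow it were the Ifnar2 probe set 1440169_x_at and the Stat3 probe sets 1460700_at and 1424272_at. The median difference of the 19 was 0.17 with all arrays and 0.02 without wild-type replicate 3, where 11 differences were above 0 and 8 below, against 12 and 7 with all arrays. It was also smaller without Irgm1-/--labelled replicate 1 (0.11), 2 (0.04) or 3 (0.155) or without wild-type replicate 1 (0.10). Without wild-type replicate 2 it was 0.20. Median centring left 11 above 0 and 8 below. For actin, the 3' control probe set exceeded the 5' one by 2.57 log2 units on wild-type replicate 3, against 3.16 on either other wild-type array and 2.81 to 3.56 on the Irgm1-/--labelled arrays. The part of this gap in the low member values was not tested.

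**Figure D3:**
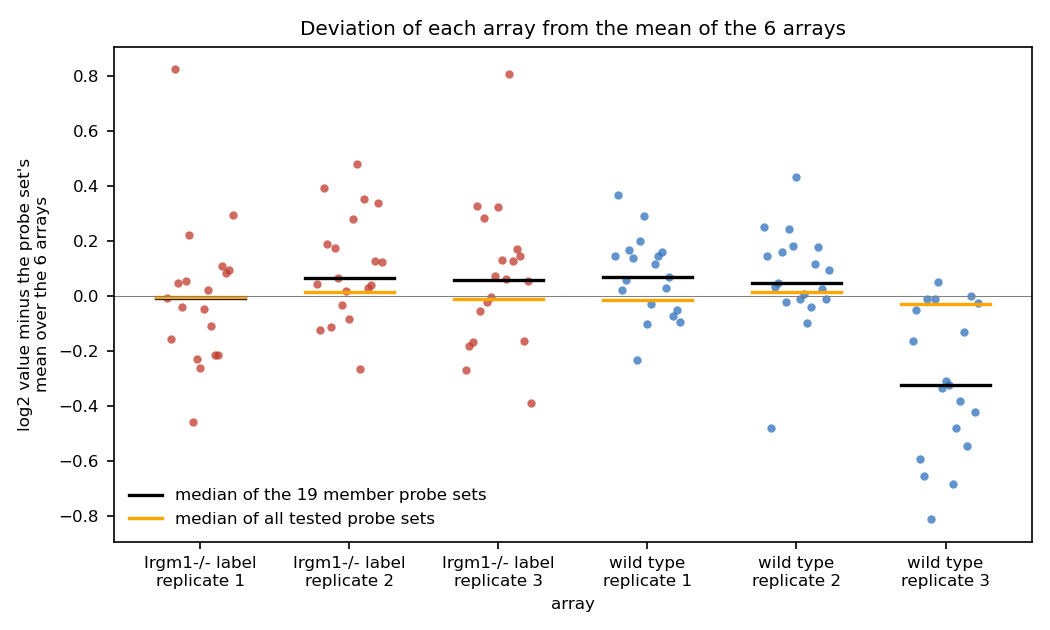
Deviation of each of the 19 tested member probe sets (points) on each array from its mean over the 6 arrays, in log2 units, with black bars for the median of the members and orange bars for the median of all 22580 tested probe sets. On wild-type replicate 3 the members' median is -0.32 and that of all tested -0.03.

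The rest of the pathway was read from a list of its other genes, of which 38 were tested on 77 probe sets. Of the 38 genes, 2 rose on the Irgm1-/--labelled arrays, 0 fell and the others did not pass by their brightest tested probe set. Both that rose are among the 16 tested genes listed as negative regulators. Of the 77 probe sets 5 rose and 0 fell in limma, against 0.664% of all tested called higher and 0.722% called lower. At an unadjusted p under 0.05 there were 13 of the 77, against 16.4% of all tested, and 4 of the 13 were below 0. The probe set count was 2 without Irgm1-/--labelled replicate 1 or without wild-type replicate 1 or 2, 3 without Irgm1-/--labelled replicate 2 or wild-type replicate 3, and 4 without Irgm1-/--labelled replicate 3.

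Usp18, a protease that removes Isg15 and also binds Ifnar2 to block Jak1 there, read 6.65, 7.37 and 7.63 on the Irgm1-/--labelled arrays against 4.06, 4.62 and 4.04 on the wild-type arrays. The groups lay far apart, with a log2 difference of 2.98 (SE 0.29, adjusted p = 0.00737). Its adjusted p was at most 0.0481 in the alternatives that tested it, which the filter at the 70th percentile did not. Usp18 is an interferon target as well as a brake.

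Socs2, a feedback inhibitor of growth hormone and other cytokine receptors that signal through Jak2, was higher with 4 of its 5 tested probe sets, with differences from 1.54 to 2.14 over the 5. Its brightest, 1449109_at, read 11.34, 11.16 and 10.93 on the Irgm1-/--labelled arrays against 9.46, 9.76 and 9.58 on the wild-type arrays (difference 1.54, SE 0.16, adjusted p = 0.00783). The count of 4 was 1 without Irgm1-/--labelled replicate 1 or without wild-type replicate 1 or 2, 2 without Irgm1-/--labelled replicate 2 or wild-type replicate 3, and 3 without Irgm1-/--labelled replicate 3.

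The other tested negative regulators did not pass. Socs1 was not tested, since its single probe set lay below the brightest control on every array (1.34 to 1.37 on the Irgm1-/--labelled arrays and 1.32 to 1.35 on the wild-type arrays). In the class 9 of 38 probe sets had an unadjusted p under 0.05 in limma, against 16.4% of all tested. Beside Socs2 and Usp18 these were of Ptprc (0.66, SE 0.19, adjusted p = 0.17), Ptpn1 (-0.71, SE 0.22, adjusted p = 0.1865) and Ptpn11 (-0.30, SE 0.12, adjusted p = 0.277). The other tested probe sets of Ptprc, Ptpn1 and Ptpn11 differed by 0.24, -0.13 and -0.10. Socs3, the inhibitor of receptors that use Stat3, is named for that role after its values were seen. Its brightest probe set differed by -0.23 (SE 0.18, adjusted p = 0.582). Among the 5 other tested JAK and STAT genes 0 passed in limma. At an unadjusted p under 0.05 there were 0 of 6 probe sets, against 16.4% of all tested. The smallest p-value was that of Stat4, which transmits interleukin-12 signals (log2 difference -0.43, SE 0.21, adjusted p = 0.362). Stat6, which transmits those of interleukin-4, differed by -0.48 with its dimmer probe set (SE 0.35, adjusted p = 0.542). Jak3, the lymphoid kinase, is named for its wide interval after its values were seen and differed by 0.01 (SE 0.50, 95% interval -1.15 to 1.18), which leaves room for a 2-fold change either way.

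Irf9, the partner of Stat2, and Irf1, a direct target of interferon gamma, are named here for these roles after their values were seen. Irf9 read 7.31, 7.79 and 7.53 on the Irgm1-/--labelled arrays against 7.80, 7.60 and 7.47 on the wild-type arrays (difference -0.08, SE 0.19, 95% interval -0.54 to 0.37, adjusted p = 0.873). Irf1 read 9.997, 10.44 and 10.46 on the Irgm1-/--labelled arrays against 10.59, 10.56 and 9.95 on the wild-type arrays (difference -0.07, SE 0.22, 95% interval -0.58 to 0.45, adjusted p = 0.915). The groups overlapped for both. Of the 11 tested partner and downstream factors, 0 passed in limma. Against 16.4% of all tested, 2 of their 25 probe sets had an unadjusted p under 0.05. These were a probe set of the coactivator Crebbp (-0.63, SE 0.19, adjusted p = 0.182), with 3 other Crebbp probe sets between -0.08 and 0.30, and one of the nuclear import receptor Kpnb1 (0.38, SE 0.14, adjusted p = 0.258). The brightest Kpnb1 probe set went the other way (-0.30, SE 0.18), and the remaining tested one differed by 0.30 (SE 0.22).

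Of the other receptor chains 4 genes were tested and 0 passed in limma. Against 16.4% of all tested, 1 of their 6 probe sets had an unadjusted p under 0.05. That was Il6ra, the ligand-binding chain for interleukin-6, which read 8.22, 7.73 and 8.14 on the Irgm1-/--labelled arrays against 8.98, 8.53 and 8.31 on the wild-type arrays (difference -0.58, SE 0.23, adjusted p = 0.283).

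Most ligand genes were at the level of the controls. Of 10 ligand genes on the array, 7, all of them type I interferon genes, never exceeded the brightest control probe set of a bacterial RNA on the same array (3.002 to 3.178). Ifna5 lay close to those controls, at 3.12 to 3.22 on the Irgm1-/--labelled arrays and 3.13 to 3.17 on the wild-type arrays. Ifnz, a type I interferon gene with a clear signal, read 6.44, 6.37 and 6.45 on the Irgm1-/--labelled arrays against 6.53, 6.48 and 6.84 on the wild-type arrays. Its groups did not overlap, and the log2 difference of -0.19 (SE 0.18, 95% interval -0.60 to 0.22, adjusted p = 0.63) did not pass. Interferon gamma itself, Ifng, read 6.28, 5.53 and 8.54 on the Irgm1-/--labelled arrays against 3.97, 2.79 and 3.98 on the wild-type arrays. Every Irgm1-/--labelled array was above every wild-type array, replicate 3 most, yet the difference of 3.21 (SE 0.73, 95% interval 1.49 to 4.92) did not pass, with an adjusted p = 0.1 and a range of 0.0452 to 0.256 over the alternatives. Only array weights brought it under the threshold.

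Ifng is made by T and NK cells, and their markers moved with it. Of 9 tested T and NK markers of 14 on the array 4 rose, also without Irgm1-/--labelled replicate 3, and 0 fell. Among all tested probe sets 0.664% were called higher and 0.722% lower. The summed log2 level of the 14 ran from 78.0 to 100.4 on the Irgm1-/--labelled arrays, highest on replicate 3, and from 55.4 to 59.3 on the wild-type arrays. Cd4 and Ncr1 were at the level of the controls on all 6 arrays, while Ccl5 differed by 4.93, Gzmb by 3.69 and Thy1 by 3.63. Without other single arrays the count was 3 (Irgm1-/--labelled replicate 2), 2 (Irgm1-/--labelled replicate 1 or wild-type replicate 3) or 1 (wild-type replicate 1 or 2). Of the tested markers of B cells (2), monocytes and macrophages (4), neutrophils (2) and erythroid cells (1), 0 passed in limma. Since 1.39% of all tested probe sets passed, 0 of so few genes says little. The monocyte marker Cd14 was lower without overlap (-1.25, SE 0.23, adjusted p = 0.0518). The other tested monocyte markers did not go with it. Csf1r differed by 1.15 (SE 0.60) and 1.36 (SE 0.68) with its tested probe sets, Adgre1 by 0.41 (SE 0.35) and Lyz2 by -0.04 (SE 0.30), all with overlap. The summed level of 6 neutrophil markers was 20.7 to 22.5 on the Irgm1-/--labelled arrays and 20.1 to 20.5 on the wild-type arrays. The part of T and NK cells in the Ifng level was not tested. In sorted bulk cells more cells of a type and more RNA per cell cannot be told apart.

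**Figure D4:**
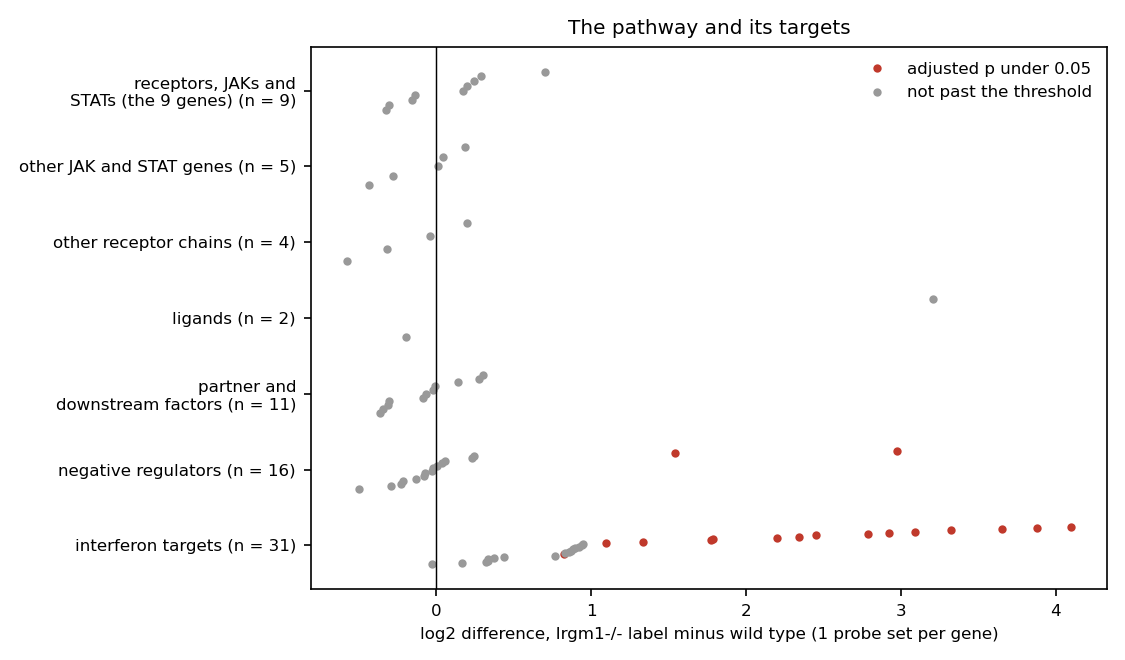
Log2 difference (horizontal axis, Irgm1-/--labelled minus wild type) of the brightest tested probe set of each gene, by class of the pathway (rows), in red where the limma adjusted p was under 0.05. The 9 receptor, JAK and STAT genes lie between -0.33 and 0.70 with none in red, and none of the other JAK and STAT genes is red, whereas 15 of 31 interferon targets and 2 of 16 negative regulators are red. Among all tested probe sets 1.39% passed.

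Beside these levels stand the genes the pathway acts on. Of 31 tested interferon targets 15 rose by their brightest tested probe set, against 0.664% of all tested probe sets called higher. The others did not pass, and 0 fell, against 0.722% called lower. The list was known from earlier results of these data to rise and is no independent evidence. Rsad2 (viperin) differed by 3.33, Phf11d by 3.66 and the chemokine Cxcl10 by 3.88. The median difference of the 42 tested target probe sets was 0.92, against 0.17 for the 19 of the receptors, kinases and STATs and 0.01 for all tested. The count of 15 was 11 without Irgm1-/--labelled replicate 3, where the T and NK markers were highest, or without wild-type replicate 3, 10 and 9 without Irgm1-/--labelled replicates 2 and 1, and 7 and 6 without wild-type replicates 1 and 2. Whether the targets differ from the 9 genes was not tested.

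The cells carried the genes that mark stem cells. Of 10 such markers on the array all 10 passed the filter and 0 passed the threshold in limma. However, 7 of their 16 probe sets had an unadjusted p under 0.05, against 16.4% of all tested. Of these 7, 6 were lower on the Irgm1-/--labelled arrays. The summed log2 level of the 10 was 98.8 to 101.8 on the Irgm1-/--labelled arrays and 102.2 to 103.1 on the wild-type arrays. The transcription factor gene Gata2 had the smallest p-value and read 9.25, 9.45 and 9.69 on the Irgm1-/--labelled arrays against 10.17, 10.26 and 10.46 on the wild-type arrays (difference -0.83, SE 0.17, adjusted p = 0.0664), while its dimmer probe set differed by -0.05 (SE 0.16, adjusted p = 0.917). Slamf1, the signalling receptor CD150, went the other way and had the largest difference of the list. Its brightest probe set read 7.22, 7.98 and 6.71 on the Irgm1-/--labelled arrays against 6.25, 6.15 and 5.23 on the wild-type arrays (difference 1.43, SE 0.39, adjusted p = 0.145), with no overlap, and its second tested probe set differed by 0.59 (SE 0.26, adjusted p = 0.312). Hlf, a stem cell transcription factor gene, differed by -0.48 with its brightest probe set (SE 0.20, adjusted p = 0.3) and by -0.90 with the other (SE 0.24, adjusted p = 0.141).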

How the data were processed

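Levels are the values the authors deposited, log2 expression per probe set, produced by GCRMA, which the submitters' processing notes name. The range of the values gave the log2 scale. Settings and genome build: not given in the sources used here. Per the labels' protocols the RNA went through 2 rounds of T7 amplification, which favours 3' ends. Values were used as deposited, with no pseudocount. The array number, 3 per group, limits the precision. Probe sets above the array median on at least 3 of 6 arrays, controls left out, were tested (22580). The comparison used limma 3.58.1 under R 4.3.3 (lmFit, eBayes with an intensity trend, 2-sided, Benjamini-Hochberg, threshold 0.05). The fit was tested on simulated data in which each probe set varied independently, so effects shared across an array were not covered. Gene names come from the platform table for probe sets with 1 symbol (34958 of 45101), and all 9 genes matched RefSeq GRCm38.p6, used for gene order and promoters.

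The members and lists were chosen with earlier results of these data known. All 9 genes were named with every probe set, together with pathway genes past the threshold, the 2 genes of smallest p per class and, per other list, up to 3 genes of smallest p beside those counted by name (Cd4 and Ncr1). For the 3 members whose brightest tested probe set had the smallest p, the 3 genes most alike were named. Socs1, Socs3, Ptprc, Ptpn1, Ptpn11, Jak3, Irf1, Irf9, Ifna5 and Lyz2 were added with their values known. The alternatives were other filters, normalisations and variance models, array weights, a replicate block, a looser threshold, other probe sets and leaving out each array; those for the target and T and NK counts were added after the data were seen. Same-numbered arrays did not deviate together (correlations -0.109, -0.018 and -0.276), so the numbers were not taken as pairs.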

Additional observations from a re-analysis of the deposited data

How the results depend on the processing

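The count of 0 called member probe sets held in all 16 alternatives run, and the lowest adjusted p of any member was 0.117, with array weights. Of 144 alternative values of the 9 genes, by the brightest tested probe set or the mean of a gene's tested probe sets, 141 kept their sign and 0 passed. Other filters, variance models and the replicate block leave the difference itself unchanged, so the sign could not turn there. Nor could it with the mean for Ifngr1, Ifngr2 and Tyk2, which had a single tested probe set. Dimmer probe sets of Jak1, Stat2 and Stat3, not in this count, turned their sign with single arrays left out. The sign turned for Tyk2 without Irgm1-/--labelled replicate 3 (-0.043, range -0.043 to 0.4924 with single arrays left out), for Stat3 without wild-type replicate 3 (-0.0234, range -0.0234 to 0.3367) and for Ifnar2 as the mean of its probe sets (0.1271). The pathway count of 5 was 2 without the filter on low signals and with the replicate block, 3 with a filter at the 25th or 70th percentile, and 2 to 4 with 1 array left out. The total of 313 called probe sets was 103 with no filter, 126 at the 25th percentile, 864 with array weights, 68 with the replicate block, 629 at adjusted p under 0.1, and 45 to 267 with 1 array left out. The labels do not say whether arrays of equal number share a batch. Under the block by that number, Socs2 did not pass with 1449109_at (adjusted p = 0.0562), and 5 target genes were called. In deviations from the group means, no array correlated best with its own number. With fewer probe sets tested or fewer arrays the adjustment itself changes, and the causes of the other shifts were not tested.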

Other observations

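For the 3 genes of the set whose brightest tested probe set had the smallest p, the genes with the most similar course over the 6 arrays were looked up among 18529 tested probe sets with 1 symbol. Ifnar1 (1442222_at) ran closest to Rai14, Mrpl15 and the CDK inhibitor gene Cdkn1a (Pearson r = 0.992, 0.991 and 0.986, n = 6 arrays). Jak1 (1433803_at) ran closest to Glcci1, Txnrd3 and the kinase gene Pak2 (r = 0.996, 0.995 and 0.994), and Ifngr2 (1423557_at) to Rgmb, the RNA-binding factor gene Msi2 and Chic1 (r = 0.996, 0.992 and 0.991). With 6 arrays such values are common, since 157, 419 and 188 probe sets passed r = 0.9 for the 3 genes, and the arrays share their group and replicate differences. They are a description only.

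The kinase and STAT relatives outside the 9 genes also tended to be lowest on wild-type replicate 3 among the wild-type arrays, in 5 of 6 tested probe sets of Jak3, Stat4, Stat5a, Stat5b and Stat6, whereas the partner and downstream factors were so in 7 of 25 and all tested probe sets in 38.9%. The interferon targets were so in 26 of 42. The difference between these shares was not tested.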
